A study of Mus musculus with 12 samples.

Results

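Collagen genes were followed across 12 RNA sequencing libraries of mouse embryonic stem (ES) cells. The members were the genes that GENCODE release M21 lists as protein coding with a symbol of the form Col, a number, a and a number. All 44 such genes were among the 52550 genes of each table. They comprised 11 fibrillar genes, 6 basement membrane genes (Col4), 6 beaded filament genes (Col6), 9 fibril-associated genes (FACIT, fibril-associated collagens with interrupted triple helices) and 12 others.

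Collagens are secreted proteins of the extracellular matrix in which 3 chains wind into a triple helix, and each chain repeats glycine and any other pair of residues (Gly-X-Y). Fibrillar collagens carry a long unbroken helix and assemble into the tensile fibrils that fibroblasts deposit. Col4 chains have an interrupted helix and form the sheet-like network of basement membranes, which in the early mouse embryo are laid down by the endoderm and the epiblast.

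The groups, of 2 libraries each, were cells labelled GSK3 knockout in serum/LIF with JQ1, the same knockout cells with DMSO, unmodified cells in 2iL with JQ1, unmodified cells in 2iL with DMSO, and unmodified cells in serum/LIF with JQ1. The last group was unmodified cells in serum/LIF with DMSO, the solvent. JQ1, which displaces BET family bromodomain proteins from acetylated histones, was given at 100 nM for 60 h. LIF, a cytokine that sustains ES cell self-renewal, was in every medium. Serum/LIF medium holds fetal bovine serum, and 2iL is serum-free with N2 and B27 supplements, the MEK inhibitor PD0325901 and another agent that the labels do not name. The term 2i usually stands for inhibition of MEK and of GSK3, kinases of growth factor and Wnt signalling. Serum/LIF cells came from culture on growth-arrested mouse embryonic fibroblasts and were plated on gelatin for the experiment. The 2iL cells grew on gelatin without such feeders, so medium and feeder history cannot be told apart. The labels give neither the GSK3 isoform nor the strain or clone of the knockout cells, nor whether the 2 libraries of a group came from separate cultures. The p-values therefore reflect the spread of library pairs, which may be only technical.

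Library totals ran from 17869865 to 48723436 expected counts, and the deepest library was replicate 1 of unmodified serum/LIF cells with DMSO. The ES cell markers Pou5f1, Sox2, Nanog, Zfp42, Utf1 and Tdgf1 summed to between 1150 and 2460 TPM (transcript abundance scaled to length and depth) and none was at 0 in any library. In the knockout libraries Gsk3a stood between 23.4 and 32.9 CPM (counts scaled to library size), against 65.1 to 130 CPM in the unmodified libraries, and was still detected. Gsk3a was lower in knockout than in unmodified serum/LIF cells with DMSO, with a log2 fold change of -1.56 ± 0.13 (standard error, adjusted p = 2.08e-06, edgeR quasi-likelihood test), and Gsk3b by -0.65 ± 0.13 (adjusted p = 0.00165).

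The helix repeat can be read from the coding exons, and the share of exons of 54 bases separates fibrillar from Col4 genes without use of any expression value. The exons printed show the repeat, and do not themselves separate the classes. The following exons of 54 bases hold 6 Gly-X-Y triplets each, with the glycine codon that opens each triplet in capitals, on the coding strand and GRCm38. The Col1a1 exon lies at chr11:94939904-94939957 (+), that of Col3a1 at chr1:45325360-45325413 (+), that of Col9a2 at chr4:121043696-121043749 (+) and that of Col4a1 at chr8:11245211-11245264 (-).
Col1a1: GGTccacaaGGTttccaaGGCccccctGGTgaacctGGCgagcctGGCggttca
Col3a1: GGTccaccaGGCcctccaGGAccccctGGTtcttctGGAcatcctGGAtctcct
Col9a2: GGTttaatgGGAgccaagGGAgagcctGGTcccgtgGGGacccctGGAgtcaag
Col4a1: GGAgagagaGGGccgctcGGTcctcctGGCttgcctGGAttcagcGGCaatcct
Exons of 54 bases made up 47.0% of the coding exons of the fibrillar genes (305 of 649) and 4.1% of those of the Col4 genes (12 of 296). They made up 25.2% in the FACIT genes, 7.8% in the Col6 genes and 0.447% in all other protein-coding genes (873 of 195387). The longest unbroken Gly-X-Y run was 216 to 344 triplets in the fibrillar genes, with a median of 338, and 39 to 66 triplets in the Col4 genes. Among other protein-coding genes its median was 2 and its highest value 81.

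Collagen transcripts were most abundant in unmodified serum/LIF cells and least abundant in 2iL, and Col18a1 was the highest collagen in all 6 groups. TPM, which is scaled to transcript length, is used wherever genes or sums of genes are compared. Summed over the 44 genes, the level was 180 and 124 TPM in knockout cells with JQ1, against 317 and 306 TPM in knockout cells with DMSO. It was 55.6 and 55.5 TPM in 2iL cells with JQ1, against 98.2 and 85.9 TPM in 2iL cells with DMSO. In unmodified serum/LIF cells it was 435 and 312 TPM with JQ1, against 567 and 550 TPM with DMSO. The sum was thus lower with JQ1 in each setting, without overlap between the libraries, although 2 libraries against 2 cannot give an exact permutation p below 0.333. TPM and the scaled CPM used for the tests differed in scale by a median of -0.17 to 0.16 on the log2 scale between libraries.

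**Figure D1:**
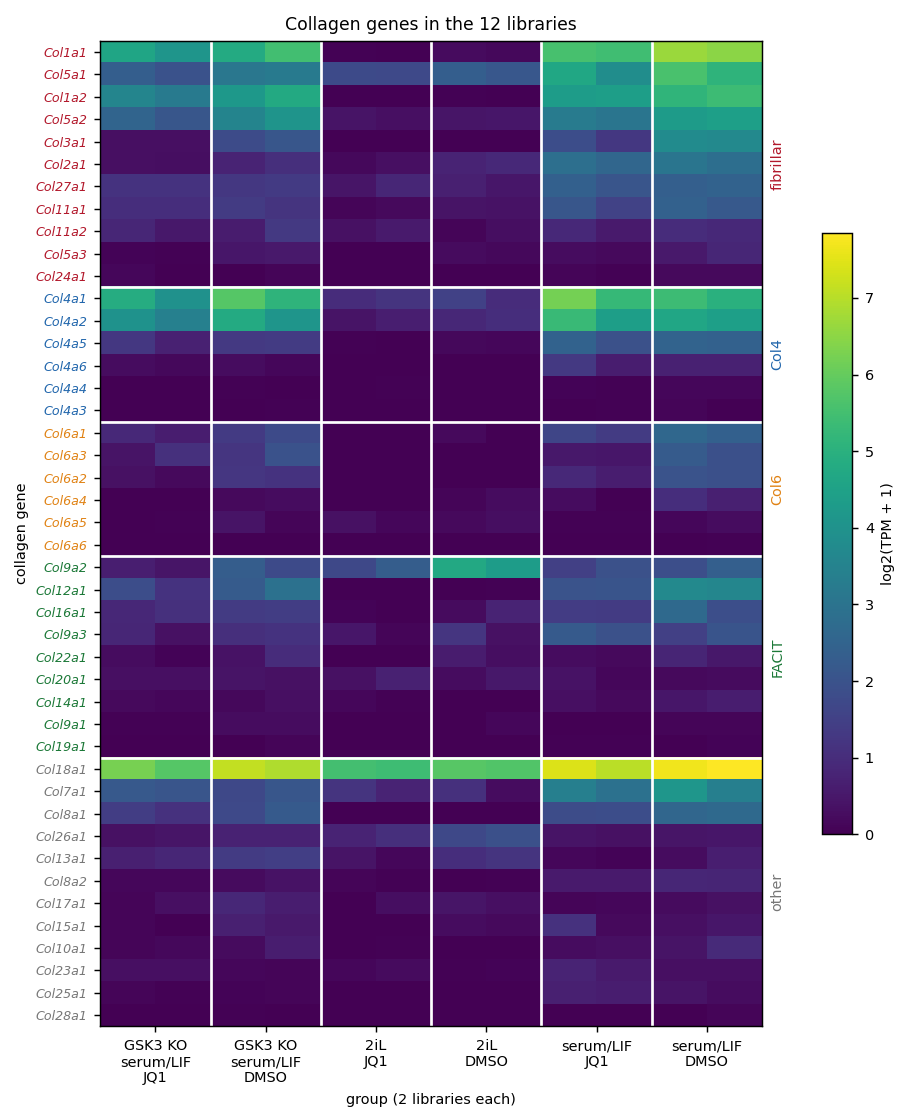
Level of each of the 44 collagen genes, as log2(TPM + 1), in the 12 libraries (columns, 2 per group), with genes grouped by class and ordered by their highest group mean. Apart from Col5a1, the fibrillar, Col4 and Col6 rows are dark in the 2iL columns, and Col18a1 is bright in every column.

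The number of collagen genes at a group mean of 1 TPM or more was 13 in knockout cells with JQ1 and 22 in knockout cells with DMSO, 4 in 2iL cells with JQ1 and 6 in 2iL cells with DMSO, and 20 in unmodified serum/LIF cells with JQ1 and 21 in those with DMSO. In the 2iL DMSO libraries 8 genes had no count: Col3a1, Col8a1, Col6a3, Col6a2, Col25a1, Col24a1, Col19a1 and Col4a3.

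Composition differed between groups as well as level. Col4 genes held 24.8% and 20.2% of the collagen TPM in knockout cells with JQ1, against 25.9% and 16.7% in knockout cells with DMSO. In unmodified serum/LIF cells they held 27.0% and 19.6% with JQ1, against 12.3% and 10.3% with DMSO, and in 2iL cells between 2.48% and 3.40%. Fibrillar genes held 26.8% and 30.6% of the collagen TPM in unmodified serum/LIF cells with JQ1, against 40.7% and 38.5% in those with DMSO. The ratio of Col4 to fibrillar TPM was accordingly 1.0 and 0.642 with JQ1, against 0.302 and 0.268 with DMSO in these cells, and the libraries did not overlap. In knockout cells the ratio was 0.957 and 0.745 with JQ1, against 1.19 and 0.496 with DMSO, and the libraries overlapped. Col18a1 alone held 80.4% and 75.7% of the collagen TPM in 2iL cells with JQ1, against 56.4% and 60.5% in 2iL cells with DMSO.

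**Figure D2:**
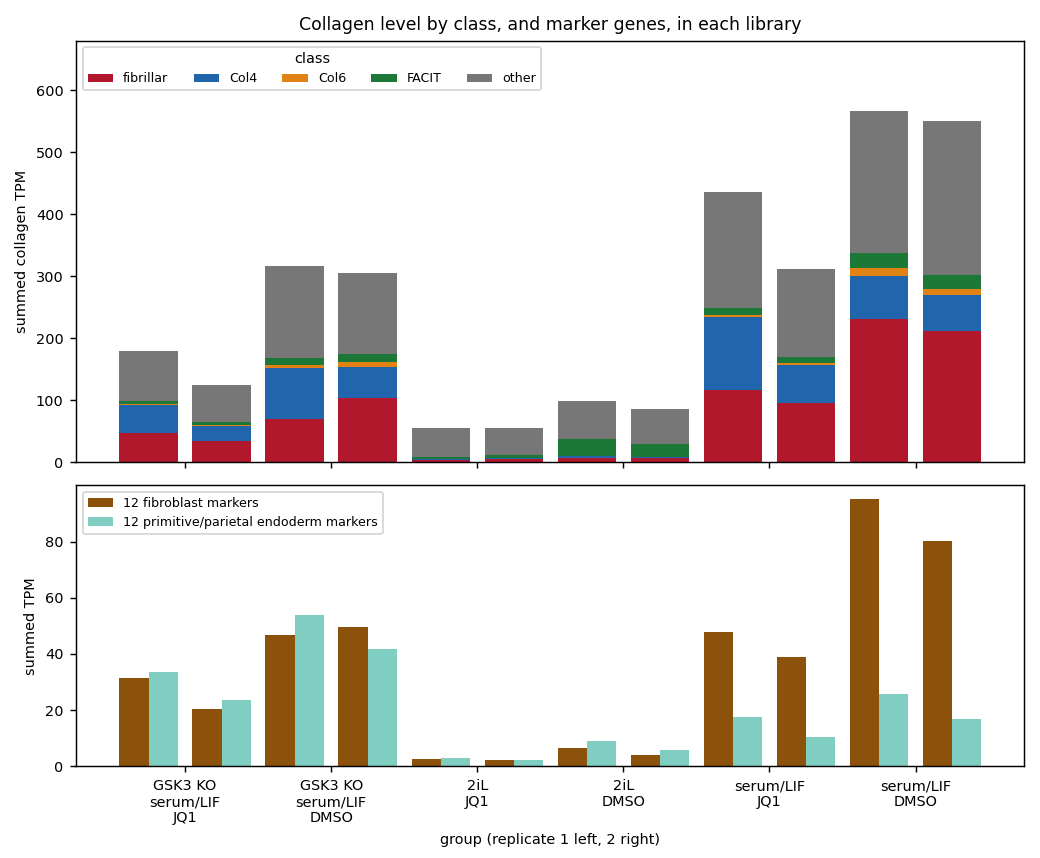
Summed TPM of the collagen classes in each library (upper panel, stacked bars) and summed TPM of 12 fibroblast markers and 12 primitive and parietal endoderm markers (lower panel), replicate 1 left of replicate 2. The fibroblast marker sum is highest in unmodified serum/LIF cells with DMSO, at 95.2 and 80.1 TPM, and the endoderm marker sum in knockout cells with DMSO, at 54 and 41.6 TPM.

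Fibroblast and endoderm markers also varied between the groups. The 12 fibroblast markers, none of them a collagen, summed to 31.4 and 20.5 TPM in knockout cells with JQ1, against 46.9 and 49.5 TPM in knockout cells with DMSO. They summed to 2.57 and 2.14 TPM in 2iL cells with JQ1, against 6.68 and 4.08 TPM in 2iL cells with DMSO. In unmodified serum/LIF cells the sum was 47.7 and 39.1 TPM with JQ1, against 95.2 and 80.1 TPM with DMSO. The sum was thus lower with JQ1 in every setting, and Postn, Lum, Dcn, Prrx1, Twist2 and Fap were at 0 in all 2iL libraries. Of the 10 fibroblast markers tested, 7 were lower with JQ1 in the knockout, against 19.5% of all genes tested, 3 in 2iL, against 17.3%, and 7 in unmodified serum/LIF cells, against 12.8%. In 2iL against serum/LIF 9 were lower (26.5% of all genes), in the knockout against unmodified cells 7 were lower (21.0%), and none was higher in any of these. Fibrillar TPM per fibroblast marker TPM was 1.49 and 1.64 in knockout cells with JQ1, against 1.48 and 2.08 with DMSO. In 2iL cells it was 1.39 and 2.01 with JQ1, against 0.988 and 1.42 with DMSO, with overlap between the libraries. In unmodified serum/LIF cells it was 2.45 and 2.44 with JQ1, against 2.43 and 2.65 with DMSO. The endoderm markers summed to 54 and 41.6 TPM in knockout cells with DMSO, against 25.6 and 17.0 TPM in unmodified serum/LIF cells with DMSO, and 10 of 12 were higher and 1 lower, against 18.9% and 21.0% of all genes. With JQ1 the endoderm sum was 33.6 and 23.6 TPM in knockout cells, 2.99 and 2.30 TPM in 2iL cells and 17.4 and 10.4 TPM in unmodified serum/LIF cells, and it was 8.96 and 5.70 TPM in 2iL cells with DMSO. The part of such cells in the collagen differences was not tested, and in bulk RNA fewer cells of a type and less RNA per cell cannot be told apart.

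Differences were tested with edgeR's quasi-likelihood test at an adjusted p under 0.05 over the 16987 genes that passed a filter on low counts. Of the 44 collagen genes 39 passed it, and Col24a1, Col4a3, Col6a6, Col19a1 and Col28a1, at no more than 0.57 CPM in any library, did not. With JQ1 in the knockout 24 of 39 were lower and 1 higher, against 19.5% and 14.6% of all genes tested (34.1% in either direction). With JQ1 in 2iL 12 of 39 were lower and 0 higher in edgeR (2 higher, Col11a2 and Col7a1, at an unadjusted p under 0.05, and 1 with DESeq2), against 17.3% and 11.2% of all genes (28.5% in either direction). With JQ1 in unmodified serum/LIF cells 18 of 39 were lower and 1 higher, against 12.8% and 8.54% of all genes (21.3% in either direction). Some members passed the filter only through DMSO libraries and so could hardly come out higher with JQ1. Among them was Col9a1, at 0.508 and 0.559 CPM in knockout cells with DMSO and no more than 0.244 CPM in any other group. Another was Col6a4, at no more than 0.174 CPM in any JQ1 library. The median log2 fold change of the 39 genes was -1.18 in the knockout, -0.78 in 2iL and -1.18 in unmodified serum/LIF cells, against -0.06, -0.06 and -0.02 for all genes. The 2iL values include 4 genes with no count in any 2iL library, and they depend on which members are taken as counted there. Among the 19 with at least 10 counts in both 2iL DMSO libraries, a choice that favours genes high with DMSO, 10 were lower and the median was -1.53. Among the 17 with a mean of at least 10 counts over the 4 libraries of 2iL cells, a choice made after the values were seen, 7 were lower and the median was -0.82.

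The 2iL cells had 33 of 39 collagen genes lower and 3 higher than serum/LIF cells, both with DMSO, against 26.5% and 28.3% of all genes tested (54.8% in either direction). Some members passed the filter only through their serum/LIF counts and so had to be lower. Of the 19 with at least 10 counts in both 2iL DMSO libraries, 13 were lower, 3 higher and 3 passed no test. Knockout cells had 24 of 39 lower and 2 higher than unmodified serum/LIF cells, both with DMSO, against 21.0% and 18.9% of all genes tested (40.0% in either direction). The lower count includes Col4a4, which passed the filter only through unmodified serum/LIF cells with DMSO. These last 2 comparisons and JQ1 in unmodified serum/LIF cells share the same 2 DMSO libraries.

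Leaving out 1 library changed some of these counts by over 1.5 times. The count for JQ1 in the knockout was 25 in all and 15 without knockout JQ1 replicate 2, and that for JQ1 in 2iL was 12 in all and 5 without 2iL JQ1 replicate 2. The count for the knockout against unmodified cells was 26 in all, 14 without serum/LIF DMSO replicate 1 and 16 without knockout DMSO replicate 1. Whichever 1 library was left out, 14 of the 24 lower calls remained for JQ1 in the knockout, 4 of 12 for JQ1 in 2iL, 12 of 18 for JQ1 in unmodified serum/LIF cells, 29 of 33 for 2iL and 10 of 24 for the knockout.

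**Figure D3:**
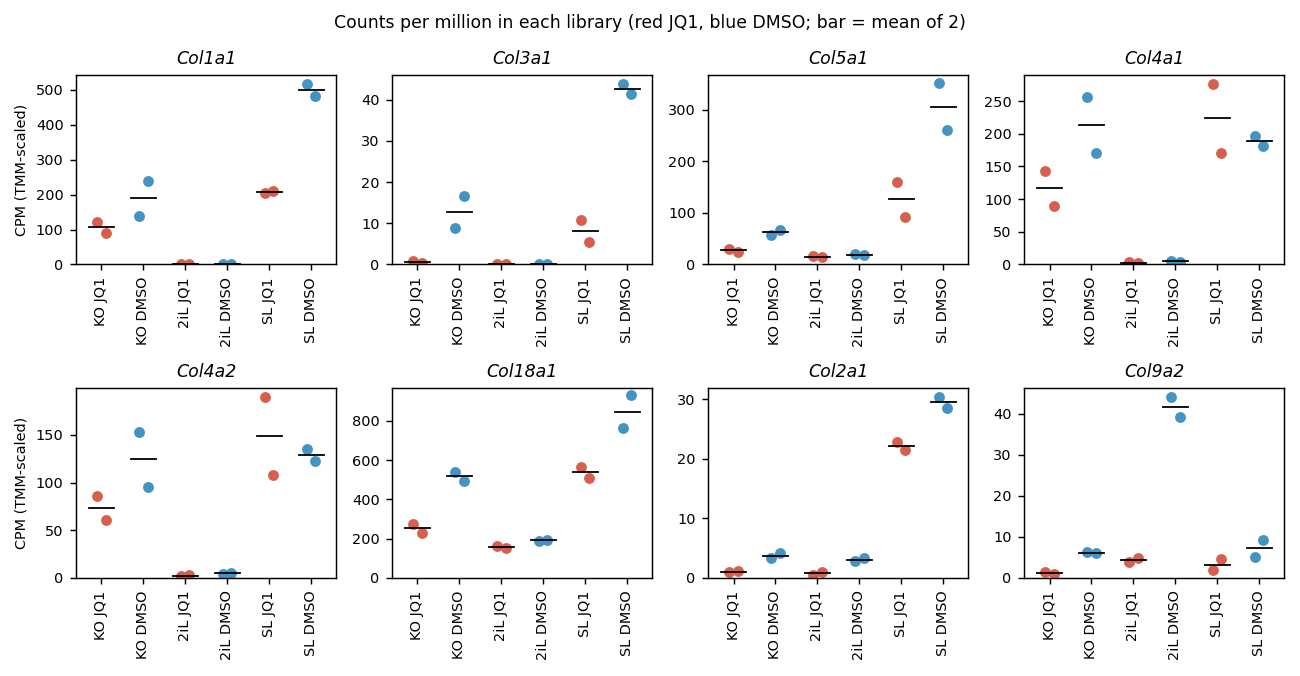
Scaled CPM of 8 collagen genes in each library (points, red for JQ1 and blue for DMSO, with the group mean as a bar), with knockout, 2iL and unmodified serum/LIF (SL) groups from left to right. Col1a1, Col3a1 and Col5a1 points with JQ1 lie below those with DMSO in SL, Col4a1 and Col4a2 points overlap there, and Col9a2 is highest in 2iL with DMSO.

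Among fibrillar genes, Col1a1, Col5a1, Col1a2, Col5a2 and Col3a1, for chains of collagens I, V and III, which fibroblasts co-assemble into fibrils, had the highest mean TPM in unmodified serum/LIF cells with DMSO. Of 10 fibrillar genes tested, 8 were lower with JQ1 in the knockout, 4 in 2iL and 7 in unmodified serum/LIF cells, and none was higher. Of all genes tested 19.5%, 17.3% and 12.8% were lower in these settings. Col1a1 (ENSMUSG00000001506.10, chromosome 11, 94936224 to 94953042, GRCm38) encodes the chain present in 2 copies in each collagen I molecule. It had 121 and 90.7 CPM in knockout cells with JQ1, against 139 and 239 CPM in knockout cells with DMSO. The unmodified serum/LIF cells had 206 and 211 CPM with JQ1, against 518 and 482 CPM with DMSO. Both pairs of groups were separate, and the log2 fold change was -0.83 ± 0.22 in the knockout (adjusted p = 0.012) and -1.26 ± 0.22 in unmodified cells (adjusted p = 0.00188). The knockout call was lost without DMSO replicate 2 (log2 fold change -0.38, adjusted p = 0.193) and without JQ1 replicate 2 (-0.63, adjusted p = 0.127). Col1a2, the other chain of collagen I, had 49.1 and 40.5 CPM in knockout cells with JQ1, against 77.7 and 126 CPM in knockout cells with DMSO. It had 76.3 and 87.4 CPM in unmodified serum/LIF cells with JQ1, against 152 and 195 CPM in those with DMSO. Its groups were separate too, with a log2 fold change of -1.18 ± 0.21 in the knockout and -1.08 ± 0.21 in unmodified cells (edgeR adjusted p = 0.00131 and 0.00366). The ratio of Col1a1 to Col1a2 TPM was 2.16 and 1.96 in knockout cells with JQ1, against 1.56 and 1.67 with DMSO, and 2.38 and 2.13 in unmodified serum/LIF cells with JQ1, against 2.97 and 2.18 with DMSO.

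Col3a1 (ENSMUSG00000026043.18, chromosome 1, 45311538 to 45349706), the single chain of collagen III, showed the largest JQ1 change of the abundant fibrillar genes. It had 0.893 and 0.334 CPM in knockout cells with JQ1, against 8.84 and 16.7 CPM in knockout cells with DMSO. For unmodified serum/LIF cells the values were 10.9 and 5.47 CPM with JQ1, against 43.9 and 41.3 CPM with DMSO. The log2 fold change was -4.25 ± 0.46 in the knockout and -2.37 ± 0.34 in unmodified cells (edgeR adjusted p = 5.06e-05 and 7.81e-04). The difference between these changes, -1.88 ± 0.58, did not pass the test (adjusted p = 0.0897), but passed with DESeq2 (adjusted p = 0.0171) and without serum/LIF JQ1 replicate 2 (-2.28, adjusted p = 0.0191).

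Col5a1 and Col5a2 encode chains of collagen V, which regulates fibril diameter. Col5a1 had 30.6 and 23.8 CPM in knockout cells with JQ1, against 57.5 and 66.6 CPM in knockout cells with DMSO. The unmodified serum/LIF cells had 160 and 92.4 CPM with JQ1, against 352 and 261 CPM with DMSO. Col5a2 had 27.8 and 20.7 CPM in knockout cells with JQ1, against 63.1 and 95.1 CPM in knockout cells with DMSO. It had 43.5 and 40.3 CPM in unmodified serum/LIF cells with JQ1, against 108 and 124 CPM in those with DMSO. All 4 pairs of groups were separate. Col5a1 fell by 1.18 ± 0.22 and Col5a2 by 1.70 ± 0.19 on the log2 scale with JQ1 in the knockout, and they fell by 1.28 ± 0.22 and 1.47 ± 0.18 in unmodified cells (edgeR adjusted p of 0.00172 or less for each). Col5a1 had the highest mean TPM of the fibrillar genes in 2iL. It stood there at 15.9 and 14.6 CPM with JQ1, against 19.3 and 18.3 CPM with DMSO, and this change of -0.30 ± 0.24 did not pass the test (adjusted p = 0.366). Col5a1 per Col5a2 TPM was 7.37 to 11.4 in the 2iL libraries, 0.544 to 0.899 in the knockout libraries and 1.64 to 2.85 in the unmodified serum/LIF libraries.

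Col2a1 (ENSMUSG00000022483.16, chromosome 15, 97975602 to 98004695), the chain of cartilage collagen II, was among the less abundant of the named fibrillar genes. It had 1.03 and 1.06 CPM in knockout cells with JQ1, against 3.25 and 4.08 CPM in knockout cells with DMSO. In 2iL cells it had 0.456 and 0.992 CPM with JQ1, against 2.80 and 3.32 CPM with DMSO. For unmodified serum/LIF cells the values were 22.8 and 21.5 CPM with JQ1, against 30.4 and 28.5 CPM with DMSO. All 3 pairs were separate, but the change passed the test only in the knockout (-1.81 ± 0.27, adjusted p = 3.33e-04) and in 2iL (-2.02 ± 0.29, adjusted p = 3.30e-04), with -0.41 ± 0.19 in unmodified serum/LIF cells (adjusted p = 0.139). The response differed from that in unmodified serum/LIF cells by -1.40 ± 0.33 in the knockout (edgeR adjusted p = 0.0315) and by -1.61 ± 0.35 in 2iL (adjusted p = 0.0208). Col2a1 was the only collagen gene called for the knockout difference, where 4.37% of all genes tested were called, 3.12% lower and 1.25% higher. It was 1 of 2 with Col9a2 for the 2iL difference, where 4.16% were called, 2.80% lower and 1.35% higher. The knockout difference lost its call in 7 of the 8 fits without 1 library (adjusted p = 0.0633 to 0.142). The 2iL difference lost it without 2iL DMSO replicate 2, 2iL JQ1 replicate 1 or serum/LIF DMSO replicate 2 (adjusted p = 0.0531, 0.0984 and 0.0606).

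Less abundant fibrillar genes gave fewer calls. Col5a3, a rarer collagen V chain, changed with JQ1 by -3.42 ± 0.55 in the knockout and by -1.95 ± 0.44 in unmodified serum/LIF cells. The unmodified call was lost without serum/LIF DMSO replicate 2 and without serum/LIF JQ1 replicate 2. In 2iL Col5a3 had 1 count in both JQ1 libraries together, against 32 in the DMSO libraries, a ratio of 30.0 (95% Poisson interval 5.38 to 1180, counting error only). Col11a1, a minor cartilage fibril chain, changed by -0.87 ± 0.24 in unmodified serum/LIF cells and by -1.53 ± 0.43 in 2iL, and Col27a1 by -0.60 ± 0.21 in the knockout. Both Col11a1 calls and the Col27a1 call were lost in at least 3 of the 4 fits without 1 library of their comparison. Col11a2, related to Col11a1, passed in none of the 3 JQ1 comparisons, with log2 fold changes of -0.12 in the knockout, 1.30 in 2iL and 0.28 in unmodified serum/LIF cells. Col1a1 in 2iL had 3 counts with JQ1, against 32 with DMSO, a ratio of 9.99 (3.42 to 48.5), and its call was lost without 2iL DMSO replicate 1, at an edgeR adjusted p of 0.125, and without 2iL JQ1 replicate 2, at 0.182.

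**Figure D4:**
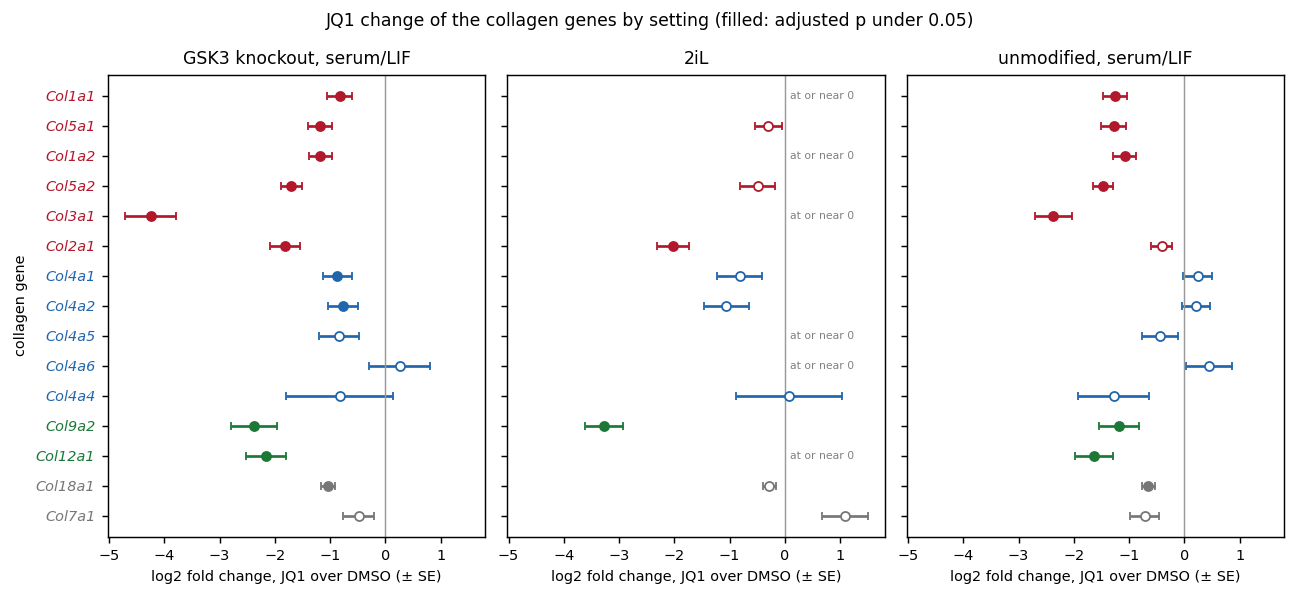
JQ1 change of 15 collagen genes as log2 fold change over DMSO (points) with its standard error (bars), in the knockout, 2iL and unmodified serum/LIF settings from left to right, coloured by class and filled where the adjusted p was under 0.05. In unmodified serum/LIF cells the fibrillar points apart from Col2a1 lie at -1.08 or lower, while Col4a1 and Col4a2 lie at 0.24 and 0.21, and genes with 3 counts or fewer in a 2iL group are marked as at or near 0.

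Lower calls with JQ1 made up 19.5% of all genes tested in the knockout, 17.3% in 2iL and 12.8% in unmodified serum/LIF cells. Of 5 Col4 genes tested, 2 were lower with JQ1 in the knockout. In 2iL and in unmodified serum/LIF cells 0 passed edgeR's test, and in the latter 7 of 10 fibrillar genes were lower. At an unadjusted p under 0.05 there was 1 of 5 in 2iL (Col4a2, which DESeq2 also called, adjusted p = 0.0418) and 0 of 5 in unmodified cells, where DESeq2 called 0 as well. With no low-count filter Col4a1, Col4a2 and Col4a5 were called lower in 2iL (edgeR adjusted p = 3.47e-04, 5.58e-06 and 0.0305), and none in unmodified cells. Col4a1 and Col4a2 encode the chains of the main basement membrane collagen. Col4a1 (ENSMUSG00000031502.11, chromosome 8, 11198423 to 11312826) had 143 and 90.1 CPM in knockout cells with JQ1, against 256 and 170 CPM in knockout cells with DMSO. The unmodified serum/LIF cells had 277 and 170 CPM with JQ1, against 197 and 182 CPM with DMSO. The unmodified groups thus overlapped, with a wide spread among the JQ1 libraries, and the log2 fold change was 0.24 ± 0.26 (edgeR adjusted p = 0.546). In the knockout the groups were separate and the change was -0.87 ± 0.26 (adjusted p = 0.0226). Col4a2 (ENSMUSG00000031503.13, chromosome 8, 11312805 to 11449287) had 85.5 and 60.1 CPM in knockout cells with JQ1, against 153 and 95.8 CPM in knockout cells with DMSO. For unmodified serum/LIF cells the values were 190 and 108 CPM with JQ1, against 135 and 123 CPM with DMSO. Its change was 0.21 ± 0.26 in unmodified cells (adjusted p = 0.608) and -0.77 ± 0.27 in the knockout (adjusted p = 0.0405), with the same overlap and separation as Col4a1. Both knockout calls were lost with DESeq2 (adjusted p = 0.0507 and 0.10), without DMSO replicate 1 (0.228 and 0.383) and without JQ1 replicate 2 (0.203 and 0.265). The difference in response between knockout and unmodified cells was -1.11 ± 0.37 for Col4a1 and -0.98 ± 0.37 for Col4a2 and did not pass (adjusted p = 0.104 and 0.143). It passed for both without serum/LIF JQ1 replicate 2 (adjusted p = 0.0239 and 0.0256) and with no low-count filter (adjusted p = 3.08e-07 and 3.20e-05). Whether Col4 and fibrillar genes differ in their response was not tested as such.

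In 2iL Col4a1 had 2.96 and 2.29 CPM with JQ1, against 5.55 and 3.59 CPM with DMSO, and Col4a2 had 1.65 and 2.59 CPM with JQ1, against 3.90 and 5.11 CPM with DMSO. The groups were separate for each gene, and the changes of -0.82 ± 0.40 and -1.06 ± 0.41 did not pass at the filter used (edgeR adjusted p = 0.142 and 0.0701). Col4a5 had 4.74 and 2.62 CPM in knockout cells with JQ1, against 6.40 and 7.10 CPM with DMSO, and 18 and 9.78 CPM in unmodified serum/LIF cells with JQ1, against 19.5 and 18.3 CPM with DMSO. Col4a6, its neighbour on the X chromosome, had 1.10 and 0.835 CPM in knockout cells with JQ1, against 1.02 and 0.615 CPM with DMSO, and 7.43 and 3.00 CPM in unmodified serum/LIF cells with JQ1, against 3.71 and 3.94 CPM with DMSO. Col4a5 groups were separate in the knockout, where the change of -0.84 ± 0.36 did not pass (adjusted p = 0.0858) but passed with no low-count filter and with the compared libraries only (edgeR adjusted p = 0.00884 and 0.0276). Col4a6 passed the JQ1 test in no setting, and Col4a4 stood at no more than 0.855 CPM in any library.

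Col4a1 and Col4a2 start from the same place on opposite strands, and their annotated starts overlap. Their 300-base promoter windows, from 250 bases before to 50 bases after each start (RefSeq, GRCm38.p6), are shown because they share 78 bases, in capitals, read on opposite strands. The Col4a1 window is chr8:11312777-11313076 (-) and the Col4a2 window is chr8:11312555-11312854 (+).
Col4a1: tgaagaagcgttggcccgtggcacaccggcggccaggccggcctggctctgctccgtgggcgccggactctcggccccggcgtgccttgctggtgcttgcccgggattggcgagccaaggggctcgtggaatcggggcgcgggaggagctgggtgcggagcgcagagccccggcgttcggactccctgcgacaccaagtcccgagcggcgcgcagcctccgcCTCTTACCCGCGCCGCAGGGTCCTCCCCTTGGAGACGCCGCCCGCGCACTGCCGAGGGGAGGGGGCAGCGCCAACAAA
Col4a2: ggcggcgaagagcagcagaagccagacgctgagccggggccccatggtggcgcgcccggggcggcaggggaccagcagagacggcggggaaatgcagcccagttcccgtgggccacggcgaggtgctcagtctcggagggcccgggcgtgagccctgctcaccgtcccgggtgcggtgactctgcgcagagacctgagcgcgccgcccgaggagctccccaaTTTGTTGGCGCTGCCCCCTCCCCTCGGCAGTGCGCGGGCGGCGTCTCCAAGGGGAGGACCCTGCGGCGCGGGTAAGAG
Col4a1 per Col4a2 TPM was 1.85 and 1.49 in knockout cells with JQ1, against 2.02 and 2.06 with DMSO, and 1.87 and 1.86 in unmodified serum/LIF cells with JQ1, against 1.69 and 1.49 with DMSO. In 2iL, where counts were low, it ranged from 0.971 to 3.12. Because the counting is not stated to use strand, reads in the overlap of the pair cannot be assigned to a gene with certainty. The same holds for other members with an antisense partner, among them Col18a1 with Slc19a1, Col10a1 with Nt5dc1 and Col9a3 with Tcfl5.

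Promoter windows were found for 35 of the 44 genes (38 windows). Searched on both strands, GGGCGG occurred in 60.5% of the collagen windows, against 35.7% of all 32851 windows, CCAAT in 34.2%, against 37.4%, TATAAA in 13.2%, against 13.6%, and CANNTG in 52.6%, against 72.3%. Matches of CANNTG and the other motifs may overlap. Col4a1 and Col4a2 held both GGGCGG and CCAAT, and Col3a1 held TATAAA and CANNTG.

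Col6 genes encode the beaded filament collagen that lies around cells and has short helices. All 5 of the 5 tested were lower with JQ1 in unmodified serum/LIF cells, with a median log2 fold change of -2.26. In the knockout 4 were lower, and in 2iL 2 were. Of all genes tested 12.8%, 19.5% and 17.3% were lower in these settings. The counts include Col6a4, which passed the filter only through DMSO libraries. In unmodified cells the Col6a5 call was lost without serum/LIF DMSO replicate 2 (log2 fold change -1.99) and without either serum/LIF JQ1 library (-2.34 and -2.17). Col6a3, the largest chain, had 0.996 and 1.06 CPM in knockout cells with JQ1, against 10.1 and 12.4 CPM with DMSO, and 3.00 and 3.10 CPM in unmodified serum/LIF cells with JQ1, against 20 and 18.5 CPM with DMSO. Its change was -3.45 ± 0.24 in the knockout and -2.66 ± 0.21 in unmodified cells (edgeR adjusted p = 5.09e-06 and 3.45e-05). Col6a1 fell by 1.41 ± 0.38 in the knockout and by 1.54 ± 0.35 in unmodified cells, and Col6a2 by 2.53 ± 0.33 and 2.22 ± 0.29. The Col6a1 call in unmodified cells was lost without serum/LIF DMSO replicate 1 (log2 fold change -1.44). Its knockout call was lost without knockout DMSO replicate 2 (-1.01) and without knockout JQ1 replicate 2 (-1.16). Col6a4 fell by 3.97 ± 0.52 in unmodified cells. In the knockout it had 2 counts with JQ1, against 29 with DMSO, a ratio of 18.2 (5.03 to 150). In 2iL Col6a4 had 2 counts with JQ1, against 21 with DMSO, a ratio of 9.84 (2.72 to 81.2). Its 2iL call was lost without 2iL JQ1 replicate 2 (log2 fold change -2.96). Col6a1 in 2iL had no count with JQ1, against 11 and 1 counts with DMSO, and its call was lost without 2iL DMSO replicate 1 (edgeR adjusted p = 0.38) and without either JQ1 library (0.127 and 0.168).

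FACIT collagens decorate the surface of fibrils. Of 8 tested, 6 were lower with JQ1 in the knockout, 4 in 2iL and 4 in unmodified serum/LIF cells, against 19.5%, 17.3% and 12.8% of all genes. The knockout count includes Col9a1, which passed the filter only through knockout cells with DMSO. Col12a1 had 10.1 and 3.95 CPM in knockout cells with JQ1, against 27.8 and 37.1 CPM with DMSO. The unmodified serum/LIF cells had 22.3 and 12.4 CPM with JQ1, against 54 and 53.5 CPM with DMSO. It changed by -2.16 ± 0.36 in the knockout and by -1.63 ± 0.34 in unmodified cells (edgeR adjusted p = 9.18e-04 and 0.006), and the groups were separate in both.

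Col9a2 (ENSMUSG00000028626.5, chromosome 4, 121039385 to 121055322), a chain of cartilage collagen IX, was 1 of the 3 collagens called higher in 2iL than in serum/LIF. It had 3.87 and 4.70 CPM in 2iL cells with JQ1, against 44.1 and 39.2 CPM in 2iL cells with DMSO. In knockout cells it had 1.41 and 0.835 CPM with JQ1, against 6.15 and 6.04 CPM with DMSO, and in unmodified serum/LIF cells 1.78 and 4.45 CPM with JQ1, against 5.03 and 9.31 CPM with DMSO. All 3 pairs of groups were separate. Col9a2 was higher in 2iL than in serum/LIF cells with DMSO by 2.57 ± 0.34 (adjusted p = 2.89e-05) and changed with JQ1 in 2iL by -3.27 ± 0.35 (adjusted p = 4.49e-05, edgeR). The JQ1 change was -2.38 ± 0.42 in the knockout (adjusted p = 0.0011) and -1.18 ± 0.36 in unmodified serum/LIF cells (adjusted p = 0.0364). The unmodified call was lost without serum/LIF DMSO replicate 2 (-0.70, adjusted p = 0.256) and without serum/LIF JQ1 replicate 1 (-0.64, adjusted p = 0.234). The response in 2iL differed from that in unmodified serum/LIF cells by -2.09 ± 0.50 (adjusted p = 0.0341), a call lost in 5 of the 8 fits without 1 library (adjusted p = 0.0795 to 0.196). Its partner chain Col9a3 changed in 2iL against serum/LIF cells by -2.54 ± 0.40, so that Col9a2 per Col9a3 TPM was 19.5 and 70.6 in 2iL cells, against 1.46 and 1.35 in serum/LIF cells, both with DMSO.

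Among the remaining collagens, 4 of 11 were lower and 1 higher with JQ1 in the knockout, against 19.5% and 14.6% of all genes tested. In 2iL 2 were lower, against 17.3%, and in unmodified serum/LIF cells 2 were lower and 1 higher, against 12.8% and 8.54%. On so few genes the 2iL and unmodified counts lie near these shares. Col18a1 (ENSMUSG00000001435.15, chromosome 10, 77052178 to 77166548), a basement membrane collagen and the source of endostatin, had 273 and 230 CPM in knockout cells with JQ1, against 541 and 492 CPM with DMSO. It had 162 and 152 CPM in 2iL cells with JQ1, against 188 and 192 CPM with DMSO, and 565 and 511 CPM in unmodified serum/LIF cells with JQ1, against 762 and 930 CPM with DMSO. All 3 pairs were separate, with log2 fold changes of -1.04 ± 0.12 in the knockout (adjusted p = 6.49e-05), -0.28 ± 0.12 in 2iL (adjusted p = 0.111) and -0.65 ± 0.12 in unmodified cells (adjusted p = 0.00274, edgeR). Col8a1, a short-chain collagen of vessel and corneal membranes, changed by -1.06 ± 0.25 in the knockout and by -1.18 ± 0.24 in unmodified serum/LIF cells. Col17a1, a transmembrane collagen of epithelial adhesion, changed by -3.31 ± 0.48 in the knockout. Col15a1, related to Col18a1, had 3 counts with JQ1 in the knockout, against 20 with DMSO. Col13a1 and Col26a1 were the 2 lower genes of this class in 2iL (-2.47 ± 0.58 and -1.62 ± 0.36). The Col13a1 call was lost without 2iL JQ1 replicate 2 and the Col26a1 call without 2iL JQ1 replicate 1. In the knockout the Col15a1 call was lost without DMSO replicate 1 and without JQ1 replicate 2. The knockout call of Col8a1 did not hold in every fit without 1 library either.

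Col23a1, a transmembrane collagen, was the only collagen higher with JQ1, by 1.37 ± 0.41 in the knockout (edgeR adjusted p = 0.0218) and 1.10 ± 0.34 in unmodified serum/LIF cells (adjusted p = 0.0353). It had 1.17 and 1.34 CPM in knockout cells with JQ1, against 0.559 and 0.391 CPM with DMSO, and 3.08 and 2.32 CPM in unmodified serum/LIF cells with JQ1, against 1.28 and 1.23 CPM with DMSO. Both calls were lost with DESeq2, in each of the 4 fits without 1 library in the knockout, and in 3 of 4 in unmodified cells. Col7a1, the anchoring fibril collagen of skin, had 2.22 and 2.37 CPM in 2iL cells with JQ1, against 1.47 and 0.691 CPM with DMSO, and 35.2 and 19.6 CPM in unmodified serum/LIF cells with JQ1, against 52.5 and 37.9 CPM with DMSO. The changes of 1.09 ± 0.41 and -0.72 ± 0.26 lay in opposite directions, and neither passed (adjusted p = 0.0666 and 0.0602), nor did their difference of 1.81 ± 0.49 (adjusted p = 0.0569), although all 3 passed with DESeq2 (adjusted p = 0.0177, 0.0442 and 0.00281). It had 7.73 and 8.91 CPM in knockout cells with JQ1, against 10.8 and 12.3 CPM with DMSO (-0.48 ± 0.28, adjusted p = 0.207).

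Of all genes tested 26.5% were lower in 2iL than in serum/LIF cells, both with DMSO. Among the collagens all 10 fibrillar genes tested, all 5 Col4 genes and 4 of 5 Col6 genes were lower. Of those with at least 10 counts in both 2iL DMSO libraries, which did not have to be lower, 7 of 7 fibrillar genes, both Col4 genes (Col4a1 and Col4a2) and 1 of 2 Col6 genes were lower. Col1a1 had 0.872 and 0.599 CPM in 2iL cells, against 518 and 482 CPM in serum/LIF cells, and its log2 fold change was -9.40 ± 0.36 (edgeR adjusted p = 1.32e-09). Col3a1 had no count in either 2iL library, which allows up to 0.138 CPM in each, against 43.9 and 41.3 CPM in serum/LIF cells, and was at least 309-fold lower. Col1a2 had 3 counts in the 2iL libraries together, against 11271 in the serum/LIF libraries, a ratio of 2380 (815 to 11500). Col4a1 had 5.55 and 3.59 CPM in 2iL cells, against 197 and 182 CPM in serum/LIF cells, and fell by 5.37 ± 0.33 (adjusted p = 3.99e-08). Col4a2 fell by 4.84 ± 0.33 and Col5a1 fell by 4.03 ± 0.24, whereas Col18a1 fell by 2.15 ± 0.13, which left it as the main collagen in 2iL. The calls of these 7 genes did not change when any 1 library was left out, whereas Col4a4 lost its call without either 2iL DMSO library (edgeR adjusted p = 0.0524 and 0.0511) and without serum/LIF DMSO replicate 1 (0.0594).

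By the floor of 3 counts per library, Col8a1 was at least 171-fold lower in 2iL than in serum/LIF, Col6a3 at least 140-fold, Col6a2 at least 73.9-fold and Col25a1 at least 9.58-fold. Col12a1 had 1 count in 2iL, against 3698 in serum/LIF, a ratio of 2340 (421 to 92600), and Col4a6 had 2 counts, against 259, a ratio of 82.1 (22.7 to 678). Besides Col9a2, the genes higher in 2iL were Col26a1 (2.53 ± 0.38, adjusted p = 8.70e-05) and Col13a1, a transmembrane collagen (1.69 ± 0.52, adjusted p = 0.0149, edgeR). Col26a1 had 4.18 and 4.79 CPM in 2iL cells, against 0.774 and 0.768 CPM in serum/LIF cells. Col13a1 lost its call without 2iL DMSO replicate 2 or serum/LIF DMSO replicate 1. Col20a1, Col22a1 and Col6a5 passed in neither direction.

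Of the 10 fibrillar genes 8 were lower in knockout than in unmodified serum/LIF cells with DMSO, and of the 5 Col4 genes 3 were. The share of all genes tested was 21.0%. Of these Col4 genes, Col4a4 passed the filter only through unmodified serum/LIF cells with DMSO and so could only come out lower. It had 0.855 and 0.819 CPM there and no more than 0.391 CPM in any other group. Col1a1 had 139 and 239 CPM in knockout cells, against 518 and 482 CPM in unmodified cells, and its log2 fold change was -1.41 ± 0.22 (edgeR adjusted p = 2.72e-04). Col5a1 had 57.5 and 66.6 CPM in knockout cells, against 352 and 261 CPM in unmodified cells, and fell by 2.31 ± 0.22 (edgeR adjusted p = 5.42e-06). Col2a1 showed the largest fall of the class, by 3.01 ± 0.21, with 3.25 and 4.08 CPM in knockout cells, against 30.4 and 28.5 CPM in unmodified cells (adjusted p = 4.85e-07). Col3a1 fell by 1.75 ± 0.33, Col1a2 by 0.77 ± 0.21 and Col5a2 by 0.55 ± 0.18. The last pair lost their calls without knockout DMSO replicate 1 (adjusted p = 0.135 and 0.279) or serum/LIF DMSO replicate 2 (adjusted p = 0.0923 and 0.133).

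Col4a1 had 256 and 170 CPM in knockout cells with DMSO, against 197 and 182 CPM in unmodified cells with DMSO, and Col4a2 had 153 and 95.8 CPM, against 135 and 123 CPM. The groups overlapped for both, with log2 fold changes of 0.17 ± 0.26 and -0.05 ± 0.26 (edgeR adjusted p = 0.64 and 0.895). Col4a5 had 6.40 and 7.10 CPM in knockout cells, against 19.5 and 18.3 CPM in unmodified cells (-1.49 ± 0.34), and Col4a6 had 1.02 and 0.615 CPM, against 3.71 and 3.94 CPM (-2.21 ± 0.50). Col4a4 was also called lower, on 7 counts in the knockout libraries, against 58, and lost the call in each fit without 1 library. Col7a1 fell by 1.98 ± 0.27 and Col18a1 by 0.71 ± 0.12, and 4 of 5 Col6 genes were lower, with log2 fold changes of -0.78 to -1.74. All 4 of the Col6 calls were lost without serum/LIF DMSO replicate 1 (edgeR adjusted p = 0.0553 to 0.0744), those of Col6a1 and Col6a3 also without knockout DMSO replicate 1 (0.12 and 0.0907), and those of Col6a2 and Col6a4 without knockout DMSO replicate 2 (0.0574 and 0.0641). Col13a1 was higher by 2.48 ± 0.52, at 3.86 and 4.47 CPM in knockout cells, against 0.407 and 1.23 CPM in unmodified cells (adjusted p = 0.00202). Col17a1 was higher by 1.65 ± 0.41 (adjusted p = 0.00645), a call lost without serum/LIF DMSO replicate 1.

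Genes that make, crosslink, bind or degrade collagen, or inhibit its degradation, were read from 5 lists. Whether the calls of these genes hold without 1 library was not examined. Beside the counts of each list stand the shares of all genes tested that were lower with JQ1, which were 19.5% in the knockout, 17.3% in 2iL and 12.8% in unmodified serum/LIF cells, with 14.6%, 11.2% and 8.54% higher. Of 19 modification, folding and export genes tested, 9 were lower with JQ1 in the knockout, 7 lower and 1 higher in 2iL, and 6 lower in unmodified serum/LIF cells. The peptidyl-prolyl isomerase gene Fkbp10 changed by -2.40 ± 0.25 in the knockout, -3.11 ± 0.47 in 2iL and -1.67 ± 0.23 in unmodified cells (edgeR adjusted p of 4.59e-04 or less). Serpinh1, the collagen chaperone HSP47, had 25.5 and 45.6 CPM in 2iL cells with JQ1, against 136 and 159 CPM in 2iL cells with DMSO (-2.05 ± 0.31, adjusted p = 4.47e-04). It did not pass in the knockout (-0.76 ± 0.30, adjusted p = 0.0624) or in unmodified cells (-0.42 ± 0.29, adjusted p = 0.332). Its response in 2iL differed from that in unmodified serum/LIF cells by -1.63 ± 0.42 (edgeR adjusted p = 0.0461). P4ha1 and P4hb, the subunits of prolyl hydroxylase, had JQ1 changes of -0.21 and -0.08 in the knockout, 0.57 and 0.06 in 2iL, and 0.09 and -0.13 in unmodified cells, of which P4ha1 in 2iL passed (adjusted p = 0.00177).

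Of 14 procollagen processing and crosslinking genes tested, 9 were lower with JQ1 in the knockout, 7 in 2iL and 8 in unmodified serum/LIF cells, and none was higher. Pcolce, the enhancer of the protease that trims procollagen, changed by -2.93 ± 0.22, -3.23 ± 0.22 and -2.13 ± 0.20 in these settings (edgeR adjusted p = 3.17e-06, 2.39e-06 and 3.72e-05). Lox, which crosslinks fibrils, had no count in any 2iL library. It had 35.5 and 36.1 CPM in knockout cells with JQ1, against 50 and 81.8 CPM with DMSO (-0.88 ± 0.20, adjusted p = 0.00779), and 64.8 and 63.6 CPM in unmodified serum/LIF cells with JQ1, against 85.5 and 111 CPM with DMSO (-0.61 ± 0.20, adjusted p = 0.0522). Pxdn, which crosslinks collagen IV, had 27.1 and 24.8 CPM in knockout cells with JQ1, against 33.2 and 28.1 CPM with DMSO, and 248 and 161 CPM in unmodified serum/LIF cells with JQ1, against 166 and 150 CPM with DMSO. It passed in neither (-0.24 ± 0.17 and 0.37 ± 0.16), and changed by -6.68 ± 0.24 in 2iL against serum/LIF and by -2.37 ± 0.18 in the knockout against unmodified cells (adjusted p = 8.99e-10 and 6.65e-07).

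Of 14 other basement membrane genes tested, 11 were lower with JQ1 in the knockout, 4 lower and 1 higher in 2iL, and 5 lower and 1 higher in unmodified serum/LIF cells. Nid1, which links laminin to collagen IV, had 55.1 and 46.0 CPM in knockout cells with JQ1, against 201 and 195 CPM with DMSO, and 101 and 69.8 CPM in unmodified serum/LIF cells with JQ1, against 153 and 175 CPM with DMSO. It fell by 1.97 ± 0.19 in the knockout and by 0.94 ± 0.19 in unmodified cells, and the difference of -1.02 ± 0.26 passed (edgeR adjusted p = 0.0472). Laminin genes Lamb1 and Lamc1 had like differences of -1.0 ± 0.25 and -1.07 ± 0.27 (adjusted p = 0.0434 and 0.0451), as did Lama5 at -1.45 ± 0.32 (adjusted p = 0.0262). In all, 5 of the list were called for this difference, each with the more negative change in the knockout, against 4.37% of all genes tested. The adjusted p-values of Nid1, Lamb1 and Lamc1 lie near the threshold, and these calls were not checked without 1 library. Lama1, the laminin chain of the embryonic basement membrane, was higher in knockout than in unmodified cells with DMSO by 3.31 ± 0.24, with 398 and 287 CPM in knockout cells, against 29.5 and 40.1 CPM in unmodified cells (adjusted p = 5.43e-07), and higher in 2iL than in serum/LIF by 1.29 ± 0.23. Against serum/LIF cells 8 of the 14 were lower and 2 higher in 2iL, where 26.5% and 28.3% of all genes were. Against unmodified cells 7 were lower and 1 higher in the knockout, where 21.0% and 18.9% of all genes were.

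Of 8 receptor genes tested, 3 were lower and 1 higher with JQ1 in the knockout, 2 were lower in 2iL and 3 in unmodified serum/LIF cells, and on so few genes the 2iL count lies near the 17.3% of all genes. Ddr1, a receptor tyrosine kinase for collagen, changed by -1.16 ± 0.16, -0.90 ± 0.18 and -0.47 ± 0.14 in these settings (edgeR adjusted p = 1.85e-04, 0.0025 and 0.0315). Without JQ1 it had 11.9 and 10.7 CPM in 2iL cells and 28.4 and 29.8 CPM in knockout cells, against 260 and 216 CPM in unmodified serum/LIF cells. The degradation list also holds Timp1, Timp2 and Timp3, which inhibit metalloproteinases. Of 9 genes of this list tested, 5 were lower with JQ1 in the knockout, 4 in 2iL and 2 in unmodified serum/LIF cells. Among them was the gelatinase Mmp2 in all 3 settings (-2.01 ± 0.24, -4.07 ± 0.44 and -1.69 ± 0.22). The inhibitors among them were Timp3 in the knockout (-0.73 ± 0.25) and Timp2 and Timp1 in 2iL (-1.09 ± 0.38 and -0.46 ± 0.16). The unmodified count of 2 of 9 likewise lies near the 12.8% of all genes. In 2iL against serum/LIF, 14 of 19 modification genes were lower and 4 higher, and 11 of 14 processing, 6 of 8 receptor and 8 of 9 degradation genes were lower, against 26.5% of all genes lower and 28.3% higher. In the knockout against unmodified cells 9 of 19 modification genes were lower and 4 higher. There 10 of 14 processing, 4 of 8 receptor and 7 of 9 degradation genes were lower, against 21.0% of all genes lower and 18.9% higher. The degradation counts include inhibitors, among them Timp3 in both comparisons (-6.45 ± 0.33 in 2iL and -2.34 ± 0.24 in the knockout) and Timp2 in 2iL (-5.28 ± 0.27).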

How the data were processed

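The authors deposited 1 RSEM table per library with expected counts and TPM per gene, which are estimates and so not always whole numbers (6.11% to 8.71% of the expected counts, zeros included, were not whole). Per the submitters' processing notes, the tools were bcl2fastq, STAR 2.5.2, RSEM and DESeq2 1.18.1, with build mm10. The strand setting and annotation release are not given in the sources used here. Gene IDs without version were matched to GENCODE M21 (52403 of 52550, 99.72%). Deposited expected counts were rounded and tested in 1 fit of 6 groups with edgeR 4.0.16 (quasi-likelihood test, TMM scaling, filter at 10 counts and a total of 15, Benjamini-Hochberg adjustment over 16987 genes). CPM are on TMM-scaled library sizes, and TPM are as deposited. Standard errors were taken from the F statistic. Totals of 17869865 to 48723436 limit low genes, and a count of 0 was read as up to 3 counts. Intervals and floors cover counting error only.

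Per-library values are given for the 12 collagen genes with the highest group mean TPM and the detected Col4 genes. Others are named where they passed a comparison, and list genes by a fixed set plus the 5 largest changes, and 1 gene of the basement membrane list is not reported here. The per-library values of Col6a3, Col13a1, Col23a1 and Col26a1 were added after their values were seen. The members and lists were chosen with earlier results of these data known. DESeq2 1.42.0, other scaling and filters, a replicate block, a fit of the compared libraries only and each library left out were tried as alternatives. With 1 library left out, the lone library of a group is assumed to vary like the others. R 4.3.3 was used, with Python 3.11.15 for summaries.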

Additional observations from a re-analysis of the deposited data

Results flagged for a closer look

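These are the collagens and basement membrane genes whose JQ1 response itself differed between settings, by the interaction term of the edgeR fit. All such differences share the 4 unmodified serum/LIF libraries. The other collagen lists held such differences too, each more negative than in unmodified serum/LIF cells. Among them was Mmp14, at -4.6 ± 0.33 in 2iL and -1.83 ± 0.23 in the knockout (edgeR adjusted p = 2.68e-05 and 0.00149). For collagens the difference in log2 fold change between 2iL and serum/LIF was -1.61 ± 0.35 for Col2a1 and -2.09 ± 0.50 for Col9a2 (adjusted p = 0.0208 and 0.0341), and that between knockout and unmodified cells was -1.40 ± 0.33 for Col2a1 (adjusted p = 0.0315). None of these collagen calls held in every fit without 1 library. The Col9a2 call was also lost with the compared libraries only (-2.12, edgeR adjusted p = 0.0693).

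Among other basement membrane genes the difference between 2iL and serum/LIF was 1.59 ± 0.32 for the laminin gene Lama1 (edgeR adjusted p = 0.0147). Between knockout and unmodified cells it was -1.45 ± 0.32 for Lama5, -1.0 ± 0.25 for Lamb1, -2.11 ± 0.49 for Lamb3, -1.07 ± 0.27 for Lamc1 and -1.02 ± 0.26 for Nid1 (edgeR adjusted p = 0.0262, 0.0434, 0.0308, 0.0451 and 0.0472). Whether the calls of these basement membrane genes hold without 1 library was not examined.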

How the results depend on the processing

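For the 15 collagen genes followed through all 7 comparisons, no called value reversed its direction under any alternative run. In all, 1070 values kept their side of the threshold, 42 lost their call and 42 gained one. The 1070 include values called in neither run, whose sign could change. Leaving out each library gave 14 to 17 collagen calls for JQ1 in unmodified serum/LIF cells (19 with all libraries), 5 to 11 for JQ1 in 2iL (12), 15 to 21 for JQ1 in the knockout (25), 31 to 35 for 2iL (36) and 14 to 20 for the knockout (26). It gave 0 to 4 for the difference in JQ1 response in 2iL (2) and 0 to 4 for that in the knockout (1). The 2iL difference had 4 calls with DESeq2, 8 with no low-count filter and 1 with the compared libraries only, and the knockout difference had 2 with DESeq2 and 5 with no filter. The cause was not tested. Groups of 2 libraries, and counts near 0 in 2iL, limit what could be called.

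Replicate numbers are shared between groups by name only: deviations of same-numbered libraries correlated at r = 0.07 to 0.19 in the groups compared, over 2 pairs each. With the replicate block the count was 20 for JQ1 in unmodified serum/LIF cells, 14 in 2iL and 28 in the knockout, 36 for 2iL and 26 for the knockout, and 5 and 2 for the differences in response in 2iL and in the knockout. The block also brought Col4a1 and Col4a2 past the threshold for JQ1 in 2iL (edgeR adjusted p = 0.0133 and 0.0388), Col4a5 for JQ1 in the knockout (0.0464) and Col4a1 for the knockout difference (0.00741), and Col6a1 lost its call in 2iL (0.0508).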
